A study of Mus musculus with 28 samples.

Results

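Presynaptic vesicle release was followed through 9 genes in mouse P19 cells: Syt1, Snap25, Stx1a, Vamp2, Syn1, Syp, Cplx1, Cplx2 and Sv2a. They were chosen by symbol from the 55385 gene identifiers of the RNA table, and 9 of 9 were found and passed the filter on low counts. P19 is an established mouse embryonal carcinoma line that forms neural cells in retinoic acid. RNA-seq covered 10 libraries in 5 groups of 2, and 14 peak lists came from native ChIP-seq for H3K9ac (acetylated lysine 9 of histone H3), H3K9cr (crotonylated lysine 9) and H3K18la (lactylated lysine 18) and from ATAC-seq, which marks open chromatin.

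The groups were undifferentiated cells at day 0, cells at day 2 of 1 µM retinoic acid with MS-275 or with its solvent DMSO, day 4 neural stem and progenitor cells after 4 days of retinoic acid, and day 8 neurons. For day 8 the cells had been replated on poly-D-lysine in a serum-free B27 medium after retinoic acid ended, so medium, substrate and time changed together. MS-275, an inhibitor of class I histone deacetylases, was given as 1 µL of a 10 mM stock. The control was 1 µL of DMSO, and each was added at 24 hours of retinoic acid. Such an addition is not listed for days 0, 4 and 8, so DMSO and time changed together between those days and day 2. No allele or transgene is named in the labels. At day 2 each mark had 1 library per condition, and at day 4 each mark and ATAC had 2. The series describes its replicates as biological, but how separate the cultures were is not stated there, so p-values measure the spread between these libraries.

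Neurotransmitter leaves a nerve terminal when a vesicle fuses with the plasma membrane. Vamp2 on the vesicle and Stx1a and Snap25 on the plasma membrane zip into the SNARE complex that drives fusion, Syt1 senses the calcium that triggers it, and the complexins Cplx1 and Cplx2 bind the assembled SNAREs and control the moment of release. Syn1 tethers vesicles into a reserve pool, Syp is an abundant membrane protein of the vesicle, and Sv2a is a vesicle glycoprotein that regulates release. Many such genes are kept off outside neurons by the RE1 silencing factor REST, which recruits histone deacetylases.

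The RNA libraries held between 18115926 and 19586374 estimated counts. The 6 pluripotency markers summed to 51.3 and 60.4 CPM (counts scaled to the library total with TMM factors) at day 8 and to 2240 and 2220 CPM at day 0. The 9 neuron markers, among them the tubulin Tubb3 and the microtubule protein Map2, summed to 4220 and 3930 CPM at day 8. At day 0 they summed to 179 and 186 CPM. These 2 sums stood with the labels, but day 8 also held RNA of other markers. The 6 neural progenitor markers summed to 1170 and 1190 CPM at day 8 and to 407 and 419 at day 0. The 7 fibroblast and mesenchyme markers summed to 1220 and 1260 CPM at day 8 and to 63.5 and 56.9 at day 0. Of 5 tested pluripotency markers 4 were lower at day 8, and Nanog was not called different (edgeR adjusted p = 0.386). Exon lengths were not used here, so levels are compared between groups of libraries and never between genes.

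Promoters are shown for 4 genes picked for the RNA changes or the letters described below. They are the 250 bases before each start from RefSeq (GRCm38.p6), 5′ to 3′ on the strand of the gene. Sv2a and Syt1 were lowered at day 2 and higher with MS-275, Syn1 holds the RE1 letters, and Cplx2 moved the opposite way. Capitals mark matches to 1 of 5 motifs searched on both strands: the left part of RE1 CAGCACC, the right part of RE1 GGACAGC, the core of the cAMP response element TGACG, the GC box GGGCGG and the TATA box TATAAA. The stretches are chr3:96180977-96181226 on the plus strand for Sv2a, chr10:109010976-109011225 on the minus strand for Syt1, chrX:20920919-20921168 on the minus strand for Syn1 and chr13:54302306-54302555 on the plus strand for Cplx2.
Sv2a: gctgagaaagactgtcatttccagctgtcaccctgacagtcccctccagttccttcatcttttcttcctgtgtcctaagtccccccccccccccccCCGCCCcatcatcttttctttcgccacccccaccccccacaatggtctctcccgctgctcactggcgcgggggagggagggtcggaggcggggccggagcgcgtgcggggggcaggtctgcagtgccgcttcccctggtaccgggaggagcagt
Syt1: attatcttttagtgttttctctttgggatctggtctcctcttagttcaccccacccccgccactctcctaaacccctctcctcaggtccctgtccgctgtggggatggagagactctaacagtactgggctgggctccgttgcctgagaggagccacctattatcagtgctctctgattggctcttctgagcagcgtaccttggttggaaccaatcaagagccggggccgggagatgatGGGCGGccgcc
Syn1: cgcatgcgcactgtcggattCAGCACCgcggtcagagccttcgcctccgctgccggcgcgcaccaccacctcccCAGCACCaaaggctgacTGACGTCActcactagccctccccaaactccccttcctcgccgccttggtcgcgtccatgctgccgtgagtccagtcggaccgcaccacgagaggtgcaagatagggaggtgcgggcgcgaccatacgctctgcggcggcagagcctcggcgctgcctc
Cplx2: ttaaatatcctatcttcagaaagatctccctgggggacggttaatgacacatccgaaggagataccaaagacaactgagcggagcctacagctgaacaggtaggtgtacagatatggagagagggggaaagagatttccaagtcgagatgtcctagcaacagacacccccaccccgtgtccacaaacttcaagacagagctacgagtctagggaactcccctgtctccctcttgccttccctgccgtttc

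Windows of 300 bases, with 50 bases after the start, were searched for 7 members: Syt1, Stx1a, Syn1, Syp, Cplx1, Cplx2 and Sv2a. Snap25 and Vamp2 were not searched. Members are counted by their first window only, while the windows of all genes include every listed start. A further Syt1 window, with its start at 109009111, is left out of the counts and medians. It held none of the 5 motifs and had 44.0% G and C and 6 CpG. The left part of RE1 was found in Syn1 alone among the 7, at 2 places that begin at -230 and -176 from the start, and in 7.14% of 32851 windows of the same length. The right part was in 0 of 7 members and 6.56% of windows. The core of the cAMP response element was in Stx1a, Syn1 and Cplx1 and in 20.8% of windows. In Syn1 2 matches on opposite strands overlap by 2 bases. The GC box was in 5 members (Syt1, Stx1a, Syp, Cplx1 and Sv2a) and 35.7% of windows, and the TATA box was in 0 members and 13.6% of windows. Cplx2 held none of the 5. The member windows had a median of 66.3% G and C and 18 CpG, against 52.7% and 7 over all windows.

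The 9 genes were not silent in undifferentiated cells, and they did not move together on the first days. On day 2 with DMSO 3 members were higher than at day 0 and 4 were lower, and by day 8 all 9 were at least 2.34-fold above day 0. Values below are CPM of the 2 libraries of each group.

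**Figure D1:**
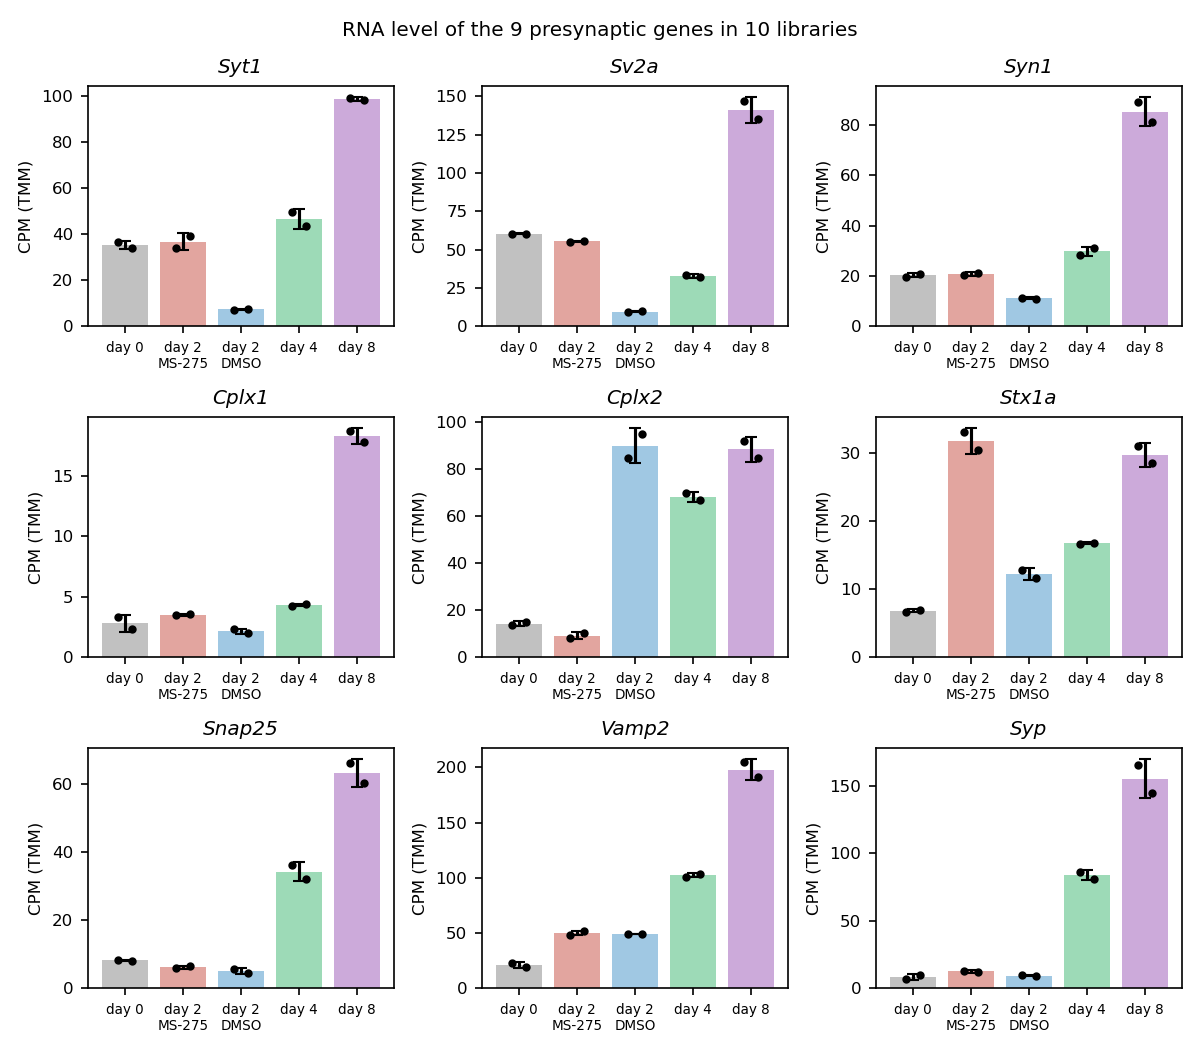
RNA level of each gene (CPM, TMM scaled, linear axes from 0) in 10 libraries. Bars are means of 2 libraries, black points the libraries and whiskers the SD. Day 8 holds the highest mean for 7 of 9 genes. The highest mean of Stx1a is with MS-275 and that of Cplx2 with DMSO. Neither was called different from day 8 (edgeR adjusted p = 0.35 and 0.816).

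Syt1, the calcium sensor, had 36.5 and 34.2 CPM at day 0, 7.225 and 7.51 with DMSO at day 2, 49.7 and 43.4 at day 4, and 99.1 and 98.05 at day 8. Sv2a, the vesicle glycoprotein, had 60.5 and 60.2 CPM at day 0, 9.16 and 9.78 with DMSO at day 2, 33.8 and 32.05 at day 4, and 146.8 and 135.1 at day 8. Syn1, the vesicle tether, had 19.8 and 20.9 CPM at day 0, 11.4 and 10.9 with DMSO at day 2, 28.3 and 31.1 at day 4, and 89.2 and 81.1 at day 8. All 3 dipped with DMSO at day 2 before they passed their starting level, Sv2a only after day 4. No library of the dip overlapped one of day 0, as for 81.3% of tested genes between those groups.

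Snap25 had 8.35 and 7.96 CPM at day 0, 5.60 and 4.38 with DMSO at day 2, 36.2 and 32.2 at day 4, and 65.9 and 60.2 at day 8. Syp had 6.725 and 9.70 CPM at day 0, 9.58 and 8.98 with DMSO at day 2, 86.6 and 81.4 at day 4, and 165.5 and 145.1 at day 8. Cplx1 had 3.31 and 2.30 CPM at day 0, 2.30 and 1.99 with DMSO at day 2, 4.25 and 4.39 at day 4, and 18.7 and 17.8 at day 8. The main step of Snap25 and Syp thus fell between days 2 and 4, and that of Cplx1 between days 4 and 8.

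Vamp2 had 23.1 and 19.3 CPM at day 0, 49.06 and 49.07 with DMSO at day 2, 101 and 103.7 at day 4, and 204.5 and 191.3 at day 8. Stx1a had 6.67 and 7.01 CPM at day 0, 12.9 and 11.7 with DMSO at day 2, 16.6 and 16.8 at day 4, and 31.0 and 28.45 at day 8. Cplx2 had 13.6 and 15.1 CPM at day 0, 84.7 and 95.1 with DMSO at day 2, 69.7 and 66.8 at day 4, and 92 and 84.65 at day 8. Vamp2 and Stx1a climbed at every step, whereas Cplx2 was already high at day 2.

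Between DMSO at day 2 and day 0, edgeR called 3 members higher, where 32.4% of 17789 tested genes were called higher, and 4 lower, where 32.2% were. Cplx2 was 6.26-fold higher (log2 2.65, SE 0.0993, edgeR adjusted p = 6.22e-13), Vamp2 2.31-fold and Stx1a 1.80-fold. Sv2a was 6.37-fold lower (log2 -2.67, SE 0.085, edgeR adjusted p = 7.42e-14), Syt1 4.79-fold, Syn1 1.82-fold and Snap25 1.63-fold. Syp (log2 0.18, edgeR adjusted p = 0.304) and Cplx1 (log2 -0.39, 0.156) were not called, and their libraries overlapped between the groups. Without day 0 replicate 2, Syp was called higher (log2 0.46, edgeR adjusted p = 0.0217) and Cplx1 lower (-0.62, 0.0408), and without day 0 replicate 1 Syp stood at -0.06. The median of the 9 log2 changes was -0.39, against 0.01 over all tested genes.

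Between day 4 and day 0, 8 members were called higher (36.2% of tested genes were) and 1, Sv2a, lower (36.1%). Syp was 10.3-fold higher (log2 3.36, SE 0.121, edgeR adjusted p = 1.67e-13), Vamp2 4.82-fold, Cplx2 4.76-fold and Snap25 4.18-fold. Stx1a was 2.45-fold higher, Cplx1 1.53-fold, Syn1 1.46-fold and Syt1 1.32-fold, while Sv2a was 1.83-fold lower (log2 -0.87, SE 0.0723, edgeR adjusted p = 9.97e-09). The call of Cplx1 (edgeR adjusted p = 0.0149) was lost without day 0 replicate 2 (log2 0.38, adjusted p = 0.158), day 4 replicate 1 (0.59, 0.0516) or day 4 replicate 2 (0.55, 0.0684). No group of libraries overlapped for any member, as for 85.7% of tested genes.

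Between day 8 and day 4, 9 of 9 members were called higher, where 21.7% of tested genes were, and 0 lower (19.8%). Sv2a was 4.28-fold higher (log2 2.10, SE 0.0705, edgeR adjusted p = 1.87e-12), Cplx1 4.22-fold, Syn1 2.87-fold and Syt1 2.12-fold. Vamp2, Snap25, Syp and Stx1a lay between 1.78-fold and 1.93-fold, and Cplx2 at 1.29-fold. The median log2 change was 0.95 for the members and 0 over all tested genes. Set against day 0, day 8 was higher for all 9 (38.1% of tested genes were), each by at least 2-fold (24.0%), from 2.34-fold for Sv2a to 19-fold for Syp (log2 4.25, SE 0.12, edgeR adjusted p = 6.2e-15). In bulk RNA, more cells with these transcripts and more transcript per cell cannot be told apart. The 9 neuron markers summed to 4220 and 3930 CPM at day 8 and to 2890 and 2780 CPM at day 4. Among them 6 were called higher and 2, Nefl and Nefm, lower, while Tubb3 was not called (median log2 0.24). The largest rise was that of Mapt, which averaged 759 CPM at day 8 and 114 at day 4. The 12 neuroendocrine markers, cells that share the release machinery, summed to 336 and 316 CPM at day 8 and 255 and 251 at day 4, with Ins1 and Ins2 at 0 in both. The 10 astrocyte and oligodendrocyte markers summed to 170 and 160 CPM at day 8 and 84.1 and 90.6 at day 4. Of 9 tested, 6 were called higher and 1, Mbp, lower. Slc1a3 (94.2 CPM), Mbp (33.1) and Aldh1l1 (24.5) had the highest means at day 8, while Gfap averaged 1.13 CPM and Aqp4 0.339. The 7 fibroblast and mesenchyme markers summed to 1220 and 1260 CPM at day 8 and 861 and 982 at day 4. The 6 pluripotency markers summed to 51.3 and 60.4 CPM at day 8 and 3.15 and 4.55 at day 4, with 5 of 5 tested called higher (median log2 3.93) and Zfp42 at 0 in both. Their part in the result was not tested.

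**Figure D2:**
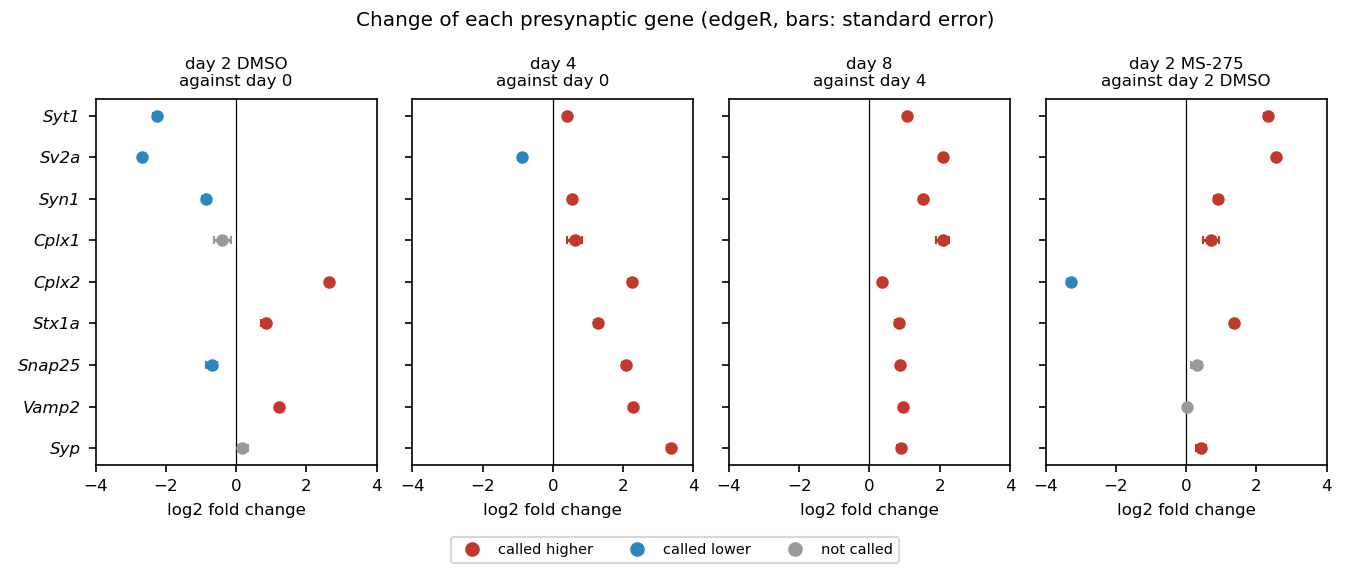
Log2 fold change of each gene (x axis, from -4 to 4) in 4 comparisons, with the standard error as whiskers, many within the point. Red points were called higher, blue lower and grey not called (edgeR, adjusted p under 0.05). All 9 points are red for day 8 against day 4, and Cplx2 is the 1 blue point for MS-275 against DMSO.

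The comparison of MS-275 with DMSO at day 2 asked how blocking class I deacetylases alters these genes early in differentiation. The drug split the family. Of the 9 members, 6 were higher, 1 was far lower and 2 were not called, against 31.9% of tested genes called higher and 31.4% lower.

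Sv2a had 55.1 and 55.65 CPM with MS-275 and 9.16 and 9.78 with DMSO, which was 5.85-fold higher (log2 2.55, SE 0.0851, edgeR adjusted p = 6.36e-13). Syt1 had 34.2 and 39.4 CPM with MS-275 and 7.225 and 7.51 with DMSO, 4.99-fold higher (log2 2.32, SE 0.109, edgeR adjusted p = 2.7e-11). Stx1a had 33.0 and 30.4 CPM with MS-275 and 12.9 and 11.7 with DMSO, 2.58-fold higher (log2 1.37, SE 0.0977, edgeR adjusted p = 3.88e-09). These are the calcium sensor, a vesicle glycoprotein and a plasma membrane SNARE, and every library with MS-275 exceeded every library with DMSO, the groups being apart for 81.5% of tested genes.

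Syn1 had 20.3 and 21.35 CPM with MS-275 and 11.4 and 10.9 with DMSO, 1.86-fold higher (edgeR adjusted p = 6.93e-07). Cplx1 had 3.47 and 3.58 CPM with MS-275 and 2.30 and 1.99 with DMSO, 1.64-fold higher (edgeR adjusted p = 0.0105). Syp had 13.1 and 11.95 CPM with MS-275 and 9.58 and 8.98 with DMSO, 1.35-fold higher (edgeR adjusted p = 0.0134). The calls of Cplx1 and Syp rested on single libraries. Cplx1 was not called without DMSO replicate 2 (log2 0.60, edgeR adjusted p = 0.0745), nor Syp without DMSO replicate 2 (0.38, 0.0875) or MS-275 replicate 1 (0.36, 0.0885).

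Cplx2 went the other way, with 8.17 and 10.2 CPM with MS-275 and 84.7 and 95.1 with DMSO. It was 9.77-fold lower (log2 -3.29, SE 0.104, edgeR adjusted p = 3.51e-13), and 99.5% of tested genes had a more positive change. The 2 complexins thus changed in opposite directions, by -3.29 for Cplx2 and 0.71 for Cplx1 on the log2 scale. Snap25 had 5.84 and 6.52 CPM with MS-275 and 5.60 and 4.38 with DMSO (log2 0.30, SE 0.151, edgeR adjusted p = 0.0922). It was called under upper quartile scaling (0.44, adjusted p = 0.0179) and without DMSO replicate 1 (0.49, 0.0373). Vamp2 had 48.7 and 51.5 CPM with MS-275 and 49.06 and 49.07 with DMSO (log2 0.03, SE 0.076, edgeR adjusted p = 0.746), and its libraries overlapped.

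With upper quartile scaling the median of all genes in this comparison moved by 0.13 on the log2 scale, and 61.3% of called genes were higher, against 50.4% with TMM. The 6 rises and the fall of Cplx2 kept their direction and calls there. Markers of other cells moved in the same libraries. Of the 6 neural progenitor markers 2 were called higher and 4 lower (median log2 -0.99), although their sum was 800 and 750 CPM with MS-275 and 682 and 690 with DMSO. Those called higher were Pax6 (log2 1.44) and Nes (0.81), and Nes averaged 616 CPM with MS-275 and 352 with DMSO. Those called lower were Hes5 (log2 -3.60), Sox1 (-1.73), Sox2 (-1.29) and Fabp7 (-0.70). The 7 fibroblast and mesenchyme markers summed to 529 and 491 CPM with MS-275 and 31.2 and 33.2 with DMSO, and 5 of 7 were called higher and 1 lower. The 6 pluripotency markers summed to 123 and 129 CPM with MS-275 and 51.8 and 49.5 with DMSO, and Zfp42 was at 0 in both. The 9 neuron markers summed to 459 and 468 CPM with MS-275 and 381 and 355 with DMSO, with 4 called higher and 3 lower. The 10 astrocyte and oligodendrocyte markers summed to 122 and 123 CPM with MS-275 and 107 and 106 with DMSO, and the 6 cardiac and muscle markers to 9.36 and 9.95 CPM with MS-275 and 4.08 and 5.17 with DMSO. Their part in the result was not tested.

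The order of the 5 groups differed between members. For Syt1, Syn1 and Sv2a the level with MS-275 was not called different from day 0. The log2 changes with MS-275 against day 0 were 0.06 (SE 0.0886, edgeR adjusted p = 0.573) for Syt1, 0.04 (SE 0.0917, 0.747) for Syn1 and -0.12 (SE 0.0689, 0.122) for Sv2a. Stx1a with MS-275 was not called different from day 8 (log2 0.09, SE 0.0887, edgeR adjusted p = 0.35), nor Cplx2 at day 8 from DMSO at day 2 (means of 88.3 CPM at day 8 and 89.9 CPM with DMSO, 0.816). For Cplx2, MS-275 gave the lowest level of the 5 groups, 1.56-fold under day 0 (edgeR adjusted p = 0.000184). Below its day 8 level, Cplx1 had no neighbouring pair of groups that was called different. These comparisons share their day 0, DMSO or MS-275 libraries.

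Genes whose profiles were most like the mean profile of the 9, by Pearson correlation of log2(CPM + 1) with the mean z-score over 10 libraries, were the sodium channel Scn2a (0.997) and Ppfia2, Slc44a5, Caskin1 and Kidins220 (0.994 each). The correlations describe 10 libraries of 5 groups and carry no p. Scn2a averaged 4.00 CPM at day 0, 3.13 with DMSO at day 2, 13.5 at day 4 and 47.4 at day 8, and 5.76 with MS-275. Most like Syt1 were Nicn1, the adhesion molecule L1cam (0.990 each) and Ttll1 (0.983). Most like Cplx2 were Fam92a (0.992), the signalling factor Smad3 (0.991) and Zdhhc3 (0.989). Smad3 averaged 35.8 CPM with MS-275 and 95.5 with DMSO. Most like Sv2a were Trim46 and Gng4 (0.988 each) and the synaptic adhesion protein Clstn3 (0.987), and Clstn3 averaged 88.3 CPM with MS-275 and 31.3 with DMSO. Most like Stx1a were Arid5b, Hap1 and Pja1 (0.987 each), with Hap1 at 302 CPM with MS-275 and 60.8 with DMSO. Most like Syp were Gpr137c, Rtn1 and Drp2 (0.997 each), and most like Snap25 were Eid2b and Dclk1 (0.996 each) and Osbpl2 (0.995). Dnajc18 (0.996), Gabbr1 and Galnt17 (0.993 each) were most like Vamp2, Reln and Rab6b (0.990 each) and Cntn4 (0.988) most like Syn1, and Scamp5 (0.994), Dscaml1 (0.991) and Gjd2 (0.990) most like Cplx1.

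The wider release machinery was read from 7 lists. At day 8 against day 4, the active zone list, the scaffold where vesicles dock, had 20 of 21 tested genes called higher and 0 lower (median log2 1.23, against 0 over all genes). Over all tested genes 21.7% were called higher and 19.8% lower, against which the counts of each list here are to be read. The vesicle tether and regulator Rims1 was 10.8-fold higher, averaging 16.9 ± 1.26 CPM in day 8 libraries and 1.57 ± 0.0626 CPM in those of day 4 (SD, n = 2 each), and Rph3a 8.17-fold. Among other synaptotagmins, complexins, synapsins and SV2 proteins 13 of 21 were higher and 0 lower (1 lower without day 8 replicate 2), led by Syn2 (5.53-fold) and Synpr (4.91-fold). In vesicle filling 8 of 13 were higher and 2 lower. The vesicular glutamate transporter Slc17a6 was 6.45-fold and the proton pump subunit Atp6v1g2 5.62-fold higher, and the transporter Slc17a7 3.92-fold lower. SNARE relatives (13 of 14 tested) had 8 higher and 1 lower, with Snap47 2.01-fold higher and Vamp8 1.59-fold lower. SNARE assembly and priming had 6 of 15 higher and 1 lower (2 without day 8 replicate 2), with Cadps2 2.63-fold higher and Unc13b 1.57-fold lower. Endocytosis and recycling had 14 of 21 higher and 2 lower, with Dnm3 7.53-fold and Pacsin1 7.34-fold higher and Stx16 1.23-fold lower. Of the 2 falls 1 was left without day 4 replicate 1, day 4 replicate 2 or day 8 replicate 1.

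At day 4 against day 0 the lists held genes called in both directions, as did all tested genes (36.2% higher and 36.1% lower), and several counts lay near those shares. The active zone list had 12 of 21 higher and 5 lower, with the scaffold Bsn 54.8-fold higher (89.5 ± 7.34 CPM in day 4 libraries and 1.62 ± 0.232 in those of day 0, SD, n = 2 each) and Rims4 5.21-fold lower. Rab3c had 53 ± 6.55 CPM at day 4 and 0.0525 ± 0.0743 at day 0. Among other synaptotagmins and relatives 8 of 21 were higher and 11 lower: Syt9 was 13.1-fold lower, while Sv2b had 8.69 ± 0.0342 CPM at day 4 and no counts at day 0, and Syt6 had 9.09 ± 1.05 CPM at day 4 and 0.0788 ± 0.111 at day 0. SNARE relatives had 4 of 13 higher and 5 lower, with Stx3 9.64-fold lower. SNARE assembly had 10 of 15 higher and 3 lower, with Cadps 11.5-fold higher and Stxbp2 3.99-fold lower. Stxbp5l had 5.06 ± 0.469 CPM at day 4 and 0.249 ± 0.203 at day 0. Vesicle filling had 7 of 13 higher and 4 lower (2 lower without day 0 replicate 2 or day 4 replicate 2), with Slc17a6 at 13.6 ± 0.946 CPM at day 4 and 0.028 ± 0.0397 at day 0, Slc17a8 at 4.71 ± 0.493 CPM at day 4 and 0.133 ± 0.109 at day 0, and Atp6v0c 1.69-fold lower. Endocytosis had 11 of 21 higher and 6 lower, with Dnm3 at 9.43 ± 0.997 CPM at day 4 and 0.356 ± 0.131 at day 0, Snap91 5.05-fold higher and Pacsin1 4.86-fold lower.

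With MS-275 against DMSO, where 31.9% of all tested genes were higher and 31.4% lower, 15 of 21 active zone genes were higher and 3 lower, with Rims4 12.6-fold higher and Rims2 3.95-fold lower. Ppfia2 had 2.14 ± 0.92 CPM with MS-275 and 0.278 ± 0.17 with DMSO. Other synaptotagmins and relatives had 15 of 21 higher and 2 lower (1 lower without DMSO replicate 2 or MS-275 replicate 1), with Syt13 7.82-fold and Syt3 6.13-fold higher and Sv2b 4.64-fold lower. SNARE assembly had 9 of 15 higher and 4 lower, with Cadps 5.10-fold lower and Stxbp5l at 3.08 ± 1.04 CPM with MS-275 and 0.946 ± 0.292 with DMSO. SNARE relatives had 6 of 13 higher and 3 lower (1 lower without DMSO replicate 2), with Vamp1 2.25-fold and Stx3 2.05-fold higher and Stx4a 1.71-fold lower. Vesicle filling had 5 of 13 higher, near the share of all genes, and 2 lower, with Slc17a7 9.10-fold higher, the GABA transporter Slc32a1 at 3.13 ± 0.621 CPM with MS-275 and 0.138 ± 0.0466 with DMSO, and Atp6ap1 1.72-fold lower. Endocytosis had 12 of 21 higher and 4 lower, with Dnm3 at 9.68 ± 0.385 CPM with MS-275 and 0.762 ± 0.0326 with DMSO, Sh3gl3 4.79-fold higher and Bin1 1.89-fold lower.

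In the RE1 silencing list 3 of 19 genes were higher and 13 lower with MS-275 (median log2 -0.26, against 0.01 over all genes; 31.9% of all genes were higher and 31.4% lower). The difference between this list and the others was not tested. Rcor3, a REST corepressor, was 2.24-fold lower and Ctdsp1 1.73-fold lower, while the deacetylase Hdac1 was 1.66-fold higher. Rest averaged 291 ± 7.87 CPM at day 0, 111 ± 5.97 with DMSO at day 2, 74.2 ± 2.24 at day 4 and 57 ± 0.434 at day 8 (SD, n = 2 each). It averaged 163 ± 5.39 CPM with MS-275 and 111 ± 5.97 with DMSO (log2 0.56, edgeR adjusted p = 2.98e-07). Its part in the changes of the members was not tested. At day 4 against day 0 the list had 14 of 19 higher and 4 lower, Rest among the lower (3.92-fold). At day 8 against day 4 it had 3 higher (1 without day 4 replicate 2) and 9 lower, with Ctdsp2 1.74-fold lower and Ctdspl 1.51-fold higher.

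**Figure D3:**
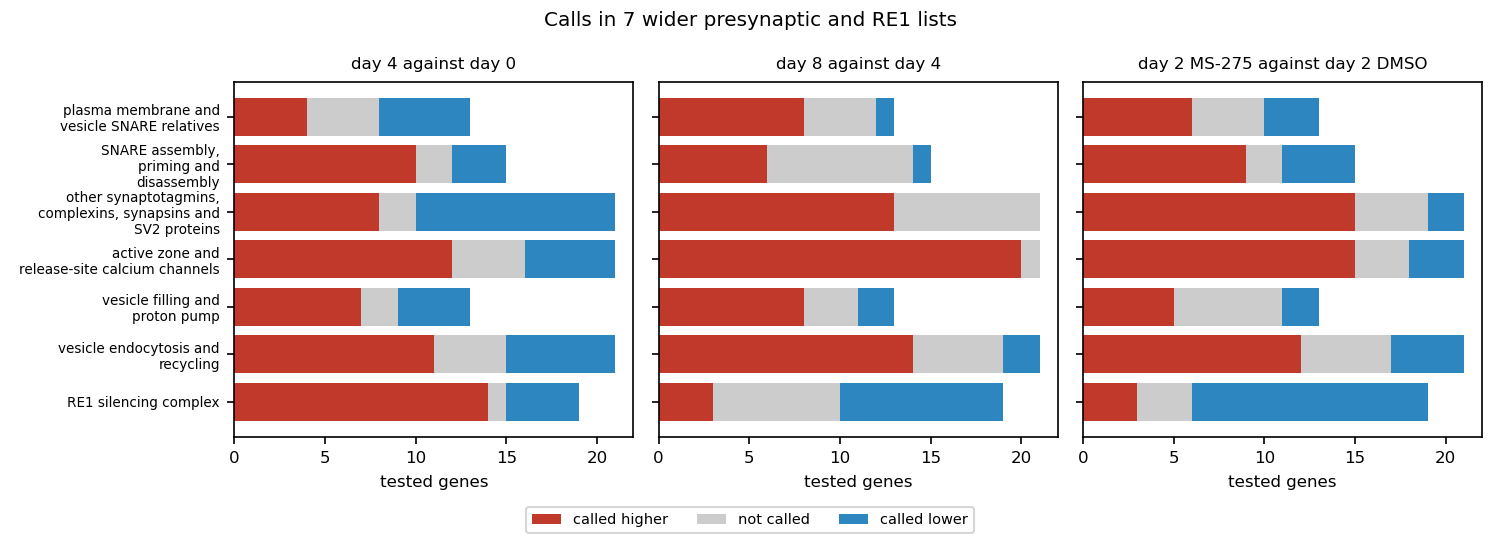
Number of tested genes (x axis) called higher (red), not called (grey) or called lower (blue) in 7 lists for 3 comparisons. The active zone list is red for 20 of 21 genes at day 8 against day 4, and the RE1 silencing list is blue for 13 of 19 with MS-275.

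Peaks were read in windows of 1 kb either side of the gene ends in RefSeq annotation (GRCm38.p6). Starts and ends are given for the 7 members whose strand the tables held. For Snap25 (chr2:136713439-136782428) and Vamp2 (chr11:69088528-69092381) the strand was not used and the lower-coordinate end is described. Fold enrichments are the authors' values over local background. They rank peaks within a list and are not compared between lists.

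Peaks of the H3K9 marks lay at the starts of the members, as at most genes whose RNA was tested. H3K9ac had a start peak at 7 of 7 with MS-275 (64.1% of 17492 protein-coding genes), 7 of 7 with DMSO (57.8%) and 7 of 7 in both lists of day 4 (59.4%). H3K9cr likewise had 7 of 7 with MS-275 (63.1%), DMSO (57.7%) and day 4 (58.1%). Among genes whose RNA was tested, the H3K9ac shares were 89.2% with MS-275, 83.1% with DMSO and 85.0% at day 4. The H3K9cr shares were 88.3%, 83.0% and 83.6% in the same order. Within the DMSO list the median H3K9ac start peak of the members was 13.9-fold enriched, against 40.5-fold over all starts. Within the MS-275 list it was 12.8-fold against 13.9-fold. Within the day 4 lists it was 42.9-fold against 55.4-fold and 31.7-fold against 54.7-fold. Snap25 and Vamp2 had peaks of both marks at their lower ends in every list. The H3K9ac start peaks of Syp were 3265 and 3194 bases long at day 4, with 86.6 and 81.4 CPM of RNA. With DMSO at day 2 the peak was 391 bases long, with 9.58 and 8.98 CPM. With MS-275 the strongest was 1648 bases long and a further peak ran from -973 to -119 bases, with 13.1 and 11.95 CPM. A link of length with RNA was not tested.

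**Figure D4:**
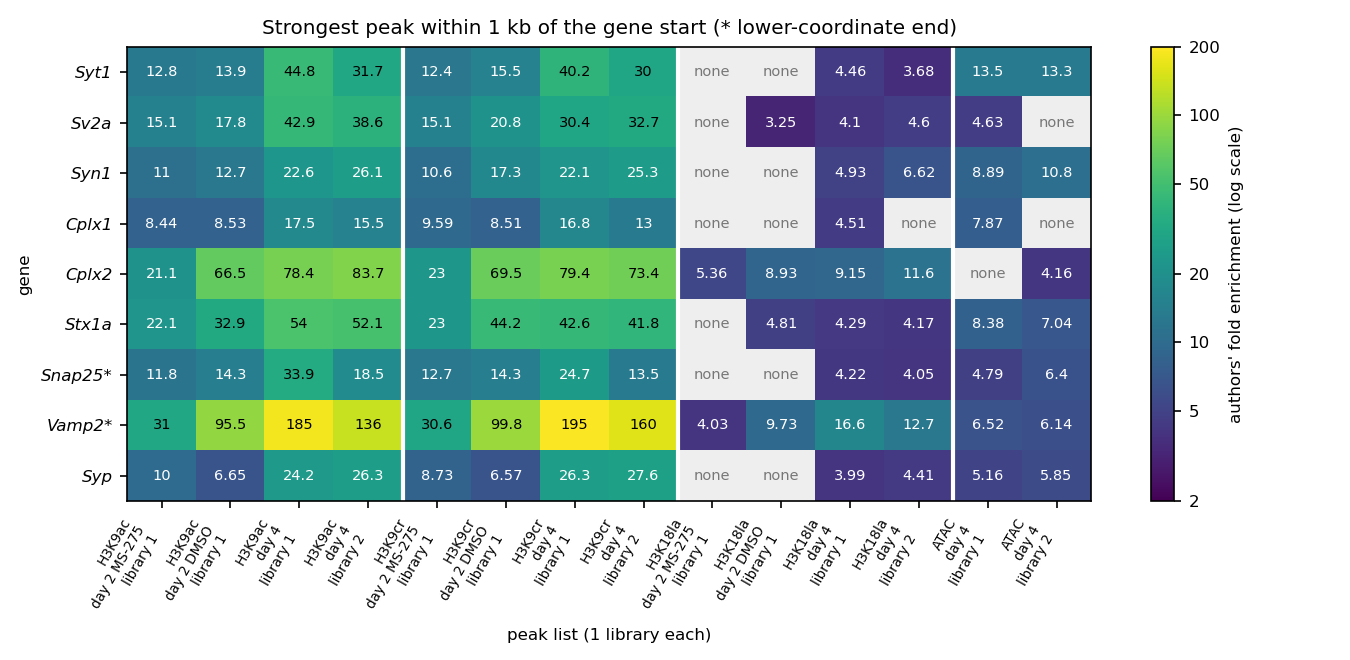
Authors' fold enrichment (number and colour, log scale) of the strongest peak within 1 kb of the gene start for 14 lists, with * for the lower-coordinate end. Cells marked none hold no peak: H3K18la has no peak at most genes at day 2, while H3K9ac and H3K9cr have one in every list.

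H3K18la was less complete. It had a start peak at 1 of 7 with MS-275 (Cplx2; 19.5% of protein-coding genes, or 27.7% of those with tested RNA), at 3 of 7 with DMSO (Stx1a, Cplx2 and Sv2a; 49.9%, or 71.5% of genes with tested RNA) and at 6 of 7 in both lists of day 4 (48.8%; 70.0% of genes with tested RNA). The Sv2a peak with DMSO was near the floor of its list. It was 3.25-fold enriched, at the 5.36 percentile, with a −log10 q of 2.48 where the lowest in the list was 2.01. Cplx1 had an H3K18la peak at day 4 in 1 list alone. Syt1, Syn1, Syp and Cplx1 had none at day 2 with either MS-275 or DMSO. Vamp2 had H3K18la peaks at its lower end in all 4 lists, and Snap25 in both lists of day 4. Outside the Snap25 window, the DMSO list held an H3K18la peak from -1526 to -1134 bases from that end. The MS-275 list held peaks from -2910 to -2336 and from -2058 to -1697 bases. ATAC peaks lay at 4 of 7 starts in both libraries (Syt1, Stx1a, Syn1 and Syp; 47.3% of protein-coding genes, or 68.5% of those with tested RNA). The Syt1 peaks, 13.5-fold and 13.3-fold enriched, ranked at the 97.9 and 97.2 percentile of their lists. Cplx1 and Sv2a had an ATAC peak in 1 library, and Cplx2, at its outermost start, in the other. Both libraries had a further Cplx2 peak, beginning 1414 and 1283 bases inside that start and within 1 kb of the inner start at 54302556.

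Cplx2 combined low RNA with strong H3K9 marks under MS-275. Its H3K9ac start peak was 21.1-fold enriched, 3401 bases long and at the 98.1 percentile of the MS-275 list, and 66.5-fold enriched, 2391 bases long and at the 90.5 percentile of the DMSO list. The median start peak over all protein-coding genes was 13.9-fold and 2580 bases with MS-275 and 40.5-fold and 1738 bases with DMSO. The highest enrichment in the MS-275 list was 43.2 and in the DMSO list 250. The H3K18la peak of Cplx2 with DMSO was 2082 bases long and ran from 197 to 2278 bases inside the start. With MS-275 the peak in the start window was 346 bases long, from 431 to 776 bases. Further MS-275 peaks ran from 1293 to 1591 and from 2138 to 2642 bases, so the 2 lengths do not compare like regions. The RNA of Cplx2 was 9.77-fold lower with MS-275, as given above. The start used for Cplx2 is its outermost (54301964), and the RefSeq promoter shown above belongs to a start at 54302556.

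The MS-275 list for H3K9ac held 84418 peaks and the DMSO list 26555. With MS-275 the start peaks of Stx1a (3699 bases), Cplx2 (3401), Sv2a (3383) and Syt1 (3282) were of like length. The strongest start peaks of Syp (1648 bases), Cplx1 (1365) and Syn1 (916) were shorter. The Sv2a start peak was 3383 bases long with MS-275 and 947 bases long with DMSO, and the RNA differed 5.85-fold. The Vamp2 peak was 9986 bases long with MS-275, longer than the 3854 bases of the gene, and 1981 bases long with DMSO, while the RNA was not called different. The MS-275 peak ran from -3760 to 6225 bases from the lower end and covered all or part of 4 separate DMSO peaks. The last of these began 5443 bases in, beyond the gene, and was 28.2-fold enriched, so a merged region is set against its main part. At day 4 it was 4519 and 5031 bases long. Peaks at gene ends were found at 2 of 7 members with MS-275 for H3K9ac (Cplx2 and Sv2a; 20.2%) and H3K9cr (18.1%), and at 1 of 7 for H3K18la (Cplx2; 4.04%). With DMSO 0 of 7 members had one (8.20% of genes for H3K9ac, 8.04% for H3K9cr and 6.75% for H3K18la). At day 4 it was likewise 0 of 7 (9.68%, 8.11% and 7.14% for the 3 marks in that order, and 3.23% for ATAC).

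**Figure D5:**
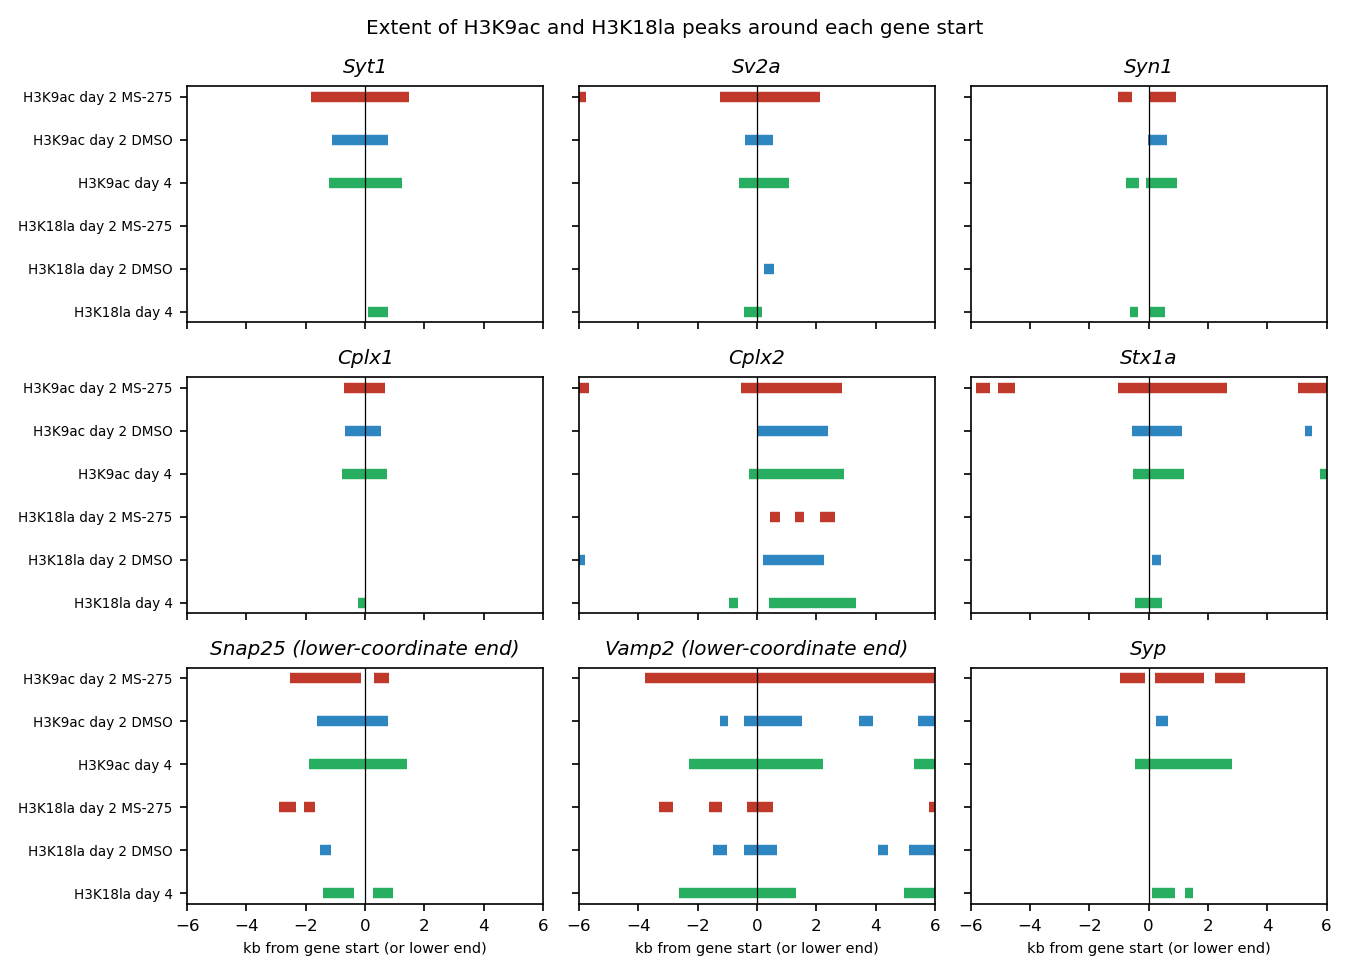
Extent of H3K9ac and H3K18la peaks (kb from the gene start, or from the lower-coordinate end where named, drawn to 6 kb) in the day 2 MS-275 (red), day 2 DMSO (blue) and first day 4 (green) lists. Bars are peaks; the H3K9ac bar of Vamp2 is the widest with MS-275 and spans the gene, where the DMSO list holds separate peaks.

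Neighbouring genes touch some windows. The lncRNA Gm32659 overlaps the lower end of Snap25, Cplx2 lies within the lncRNA LOC115488208, Gm36601 overlaps the end of Syt1, and Timp1 lies within Syn1, whose end borders Araf. Counting by strand is not stated in the labels or notes, and overlap of exons was not examined. Whether these neighbours share reads with the members is therefore not known here. Day 2 peaks rest on 1 library per condition, and read depth is unknown for the peak lists, so a missing peak is not shown to be an absent mark.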

How the data were processed

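RNA values were estimated counts for each gene as deposited by the authors. The submitters' processing notes name Salmon 1.1.0, and 19.2% to 25.8% of values were not whole, so all were rounded. Of 55385 identifiers 55144 matched a symbol. The 14 peak lists, 1 per library, gave position, pileup signal at the summit, −log10 p-value and −log10 q-value, and fold enrichment, a ratio over local background, per the file headers. The notes name Bowtie2 2.4.1, MACS2 2.2.7.1, DESeq2 1.26.0 and GRCm38; caller settings and control are not given in the sources used here.

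edgeR 4.0.16 (R 4.3.3) fitted 10 libraries with TMM factors, a filter (filterByExpr) leaving 17789 genes, and quasi-likelihood tests. Calls used an adjusted p (Benjamini-Hochberg, all tested genes) under 0.05. SE is the log2 change over the root of F. Replicates differed beyond counting error (chi-square over degrees of freedom 2.82 to 6.28). A peak counted when at least 1 base lay in the window, at day 4 in both lists. Peak presence had no test. Scripts were tested on simulated data. Named genes of the wider lists were the 2 largest called changes with a mean of at least 1 CPM per list and comparison and the largest the other way. Alike genes were the 5 nearest to the mean and 3 to each member, leaving out predicted and mitochondrial genes and pseudogenes. Wider-list genes averaging under 1 CPM in a group are given as levels, with no fold. Some genes that this rule names are not reported here. Levels between genes, planned per exon length, were not compared. The 4 input libraries were not used here. Members and lists were chosen with earlier results of these data known. Alternatives were other scalings, filters, DESeq2 1.42.0, unrounded counts, a replicate block, fewer libraries, other windows and a −log10 q minimum of 5.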

Additional observations from a re-analysis of the deposited data

How the results depend on the processing

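Of 540 member changes recomputed under other RNA settings, 528 kept direction and call, 6 lost and 4 gained a call, and 2 turned sign: Syp for DMSO against day 0 without day 0 replicate 1 (log2 -0.06; up to 0.46 without replicate 2) and Vamp2 for MS-275 against DMSO without MS-275 replicate 2 (-0.01; up to 0.07 without replicate 1). The cause was not tested. Leaving out each library in turn, members called numbered 5 to 8 for MS-275 against DMSO, 7 to 9 for DMSO against day 0, 8 to 9 for day 4 against day 0, and 9 for both day 8 comparisons. Deviations of replicate 1 from the group mean, over all tested genes, were little correlated between groups (between -0.07 and 0.09). This does not show whether equal replicate numbers shared a culture. A replicate block kept 7, 7, 9, 9 and 9 members called, and 11182 genes for MS-275 against DMSO against 11256 without it. DESeq2 called 10084 genes there. All 684 recomputed changes of 57 named wider-list results kept direction and call, and 32 of 840 list counts moved by over 1.5 times, under alternatives chosen after seeing the data.

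Windows moved the peak counts near gene ends. With 2 kb either side, 1 of 7 members had an end peak instead of 0 for H3K9ac, H3K9cr and H3K18la, each with DMSO and at day 4. With MS-275, H3K9ac and H3K9cr fell to 1 member each with 500 bases either side or with the peak midpoint inside the window, and H3K18la to 0 at −log10 q of at least 5. ATAC start peaks covered 7 members when either day 4 list counted. Medians of peak strength did not move with the nearest peak in place of the strongest. Calls of Cplx1, with 35 to 81 counts per library before day 8, rested on single libraries for MS-275 against DMSO and for day 4 against day 0. Day 2 peaks have no replicate.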

Other observations

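Across the 10 libraries, Pearson correlations of log2(CPM + 1) between members ranged from -0.26 (Cplx2 with Sv2a) to 0.97 (Snap25 with Syp, and Syn1 with Cplx1), as a description of 5 groups with no p. Syt1 and Sv2a correlated at 0.94, and Cplx2 with Syt1 at -0.08. Mean z-scores of the 9 members were -0.27 and -0.22 in the MS-275 libraries and -0.76 and -0.81 in the DMSO libraries.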
